A study of Homo sapiens with 2 samples.

Results

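The genes of retinoic acid metabolism and signalling examined here were the degrading enzymes CYP26A1 and CYP26B1, the synthetic enzyme ALDH1A2, the retinal reductase DHRS3, the carrier CRABP2, the receptors RARA, RARB and RARG, and their partners RXRA and RXRB. They are 10 of 19775 genes on an expression array, and were chosen by the low CYP26A1 signal measured in the eltrombopag sample, to ask whether other retinoid-responsive genes differed with it. All 25 probe sets that the platform annotation assigns to 1 of these genes alone were taken, out of 54613 in the table. The samples were 1 culture of HL60, a human promyelocytic leukaemia cell line, given eltrombopag at 3 µg/ml for 36 h, and 1 untreated HL60 culture. Eltrombopag is an oral drug that activates the receptor for thrombopoietin and is known to bind iron. Both cultures were kept in RPMI medium with 10% serum, and no vehicle or culture time is given for the untreated one, so drug, vehicle and culture time cannot be told apart. With 1 sample per group there is no replicate error and no test of the treatment, so each comparison sets 1 array against 1 other.

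Retinoic acid is made from vitamin A. Dehydrogenases and reductases interconvert retinol and retinal, retinal dehydrogenases such as ALDH1A2 oxidise retinal to retinoic acid, and the CYP26 enzymes hydroxylate retinoic acid and so clear it. CRABP2 delivers retinoic acid to the receptors in the nucleus, which bind DNA as pairs of a retinoic acid receptor and a retinoid X receptor. CYP26A1, RARB, DHRS3 and CRABP2 are textbook targets of these receptors, and retinoic acid is known for driving HL60 cells towards granulocytes.

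Levels are given as MAS5 signal, which is on a linear scale and tells how bright a probe set was. The 60th percentile of both arrays, a signal of 56.9, served as a floor. A gene is called measured where its brightest probe set reached the floor with eltrombopag, untreated or both, and lower signals were raised to the floor before a log2 ratio of eltrombopag over untreated was taken. The median log2 ratio of 10314 measured genes was -0.12, and 63.4% of them had a ratio below 0. Within these arrays, error shows only as disagreement between probe sets, which is not an error between cultures. It was taken from the difference in log2 ratio between the 2 brightest probe sets of a gene, over 4374 genes. The SD of that difference, divided by the square root of 2, was 0.26, and is called below the SD between probe sets of a gene.

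Markers were checked against the labels. Of 8 promyelocyte marker genes analysed, 7 were measured, with MPO, myeloperoxidase, at 1467 in the eltrombopag and 1556 in the untreated sample, while ELANE, neutrophil elastase, lay below the floor at 8.04 with eltrombopag and 11.1 untreated. The summed signal of the 8 was 11060 with eltrombopag and 11084 untreated, of which SRGN alone gave 7685 and 7160. Other SRGN probe sets gave log2 ratios of -0.88 and 0.38. Of the 7 measured, 5 had a ratio below 0 and 2 above, beside 63.4% below 0 among all measured genes. The median of the 7 was -0.21, against -0.12 for all measured genes. CTSG was lowest at -0.84, while CEBPE and MS4A3 gave -0.21 and -0.22. PRTN3 read 212.6 with eltrombopag and 246.3 untreated, and AZU1, near the floor, 80.78 and 67.25. The labels give the cell type as haematopoietic stem, yet CD34, KIT and PROM1 were below the floor in both samples, and 2 of 6 stem and progenitor markers, GATA2 and MEIS1, were measured. All 11 plasma cell markers, genes typical of antibody-secreting cells, were measured, although CD38 among them is also counted below as a gene that retinoic acid induces. Their log2 ratios were below 0 in 11 of 11, between -2.37 for IRF4 and -0.07 for XBP1. Their summed signal was 10968 in the eltrombopag and 18413 in the untreated sample, and none was at 0. At least 2-fold lower were 5 of the 11, against 2.27% of all measured genes: IRF4, TNFRSF17 at 4.28-fold, SLAMF7 at 4.02-fold, FKBP11 at 3.63-fold and SDC1 at 2.41-fold. Other SLAMF7 probe sets were 1.31-fold and at least 4.52-fold lower, and other FKBP11 probe sets 4.50-fold and 1.61-fold lower. The samples are called HL60 here by their labels alone. The markers do not bear the name out in full, with 11 of 11 plasma cell markers measured and ELANE below the floor. Whether the cultures held other cells was not tested. B cell, T cell and monocyte lists had 2 of 5, 1 of 5 and 1 of 5 genes measured, and MS4A1, CD79A, CD3D and CD14 were below the floor in both samples. In the B cell list, PAX5 was at least 2.32-fold lower with eltrombopag and BLNK 2.05-fold higher. A lower signal in bulk RNA cannot tell fewer cells of a type from less RNA per cell. The part of the plasma cell genes in the differences below was not tested.

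Of the 10 retinoid genes, 5 were measured: CYP26A1, RARA, RARB, RXRA and RXRB. CYP26A1 was lower in the eltrombopag sample by a large factor, RARB was lower by a small one near the floor, and RXRB was higher by somewhat less than 2-fold, while RARA and RXRA differed little. CYP26B1, RARG, CRABP2, DHRS3 and ALDH1A2 lay below the floor in both samples in every probe set. At least 2-fold lower was 1 of the 5 measured genes, CYP26A1, against a background of 2.27% of all measured genes, and 0 were at least 2-fold higher, against 0.65%. At 1.5-fold the count lower was 1, CYP26A1, against 11.8%, and the count higher was 1, RXRB, against 3.49%. Because CYP26A1 was chosen for this same difference, its count is a description.

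**Figure D1:**
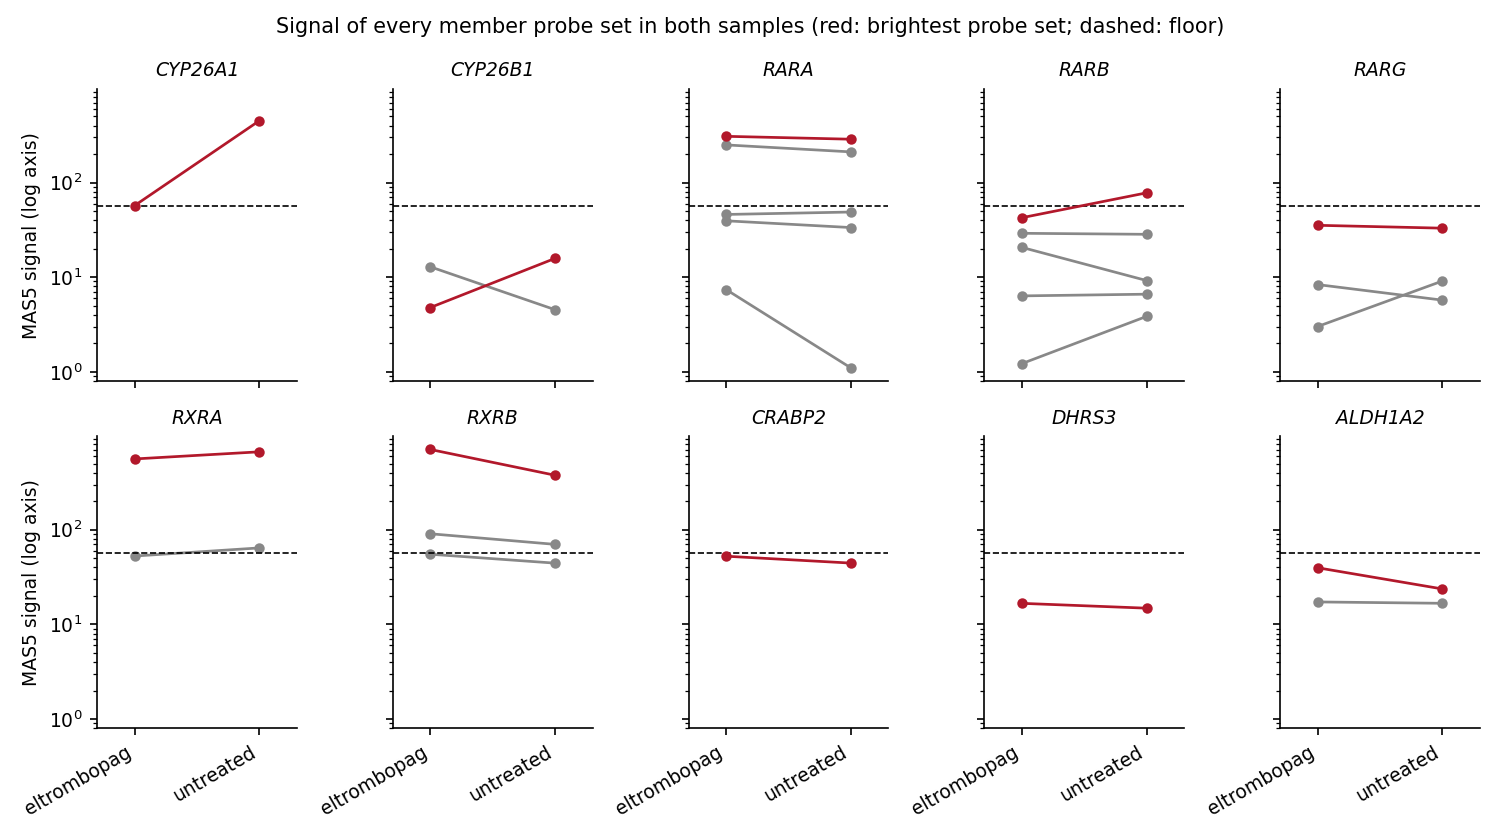
MAS5 signal (log axis) of each of the 25 probe sets in the eltrombopag sample and the untreated sample, 1 panel per gene, with a line joining the same probe set, the brightest probe set in red and the floor dashed. The CYP26A1 line lies at 57.1 with eltrombopag and 450.0 untreated, the 2 RXRB lines above the floor are higher with eltrombopag, and 17 probe sets lie below the floor in both samples.

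CYP26A1, the enzyme that hydroxylates retinoic acid, had a signal of 57.1 in the eltrombopag sample, against 450.0 in the untreated sample. The first of these lies at the edge of the floor, so the transcript lay well above the floor in the untreated sample alone. The difference was 7.88-fold lower, a log2 ratio of -2.98, and no other gene reaching the floor in both arrays had a lower ratio. That ranking leaves out genes below the floor on either array, and CYP26A1, at 57.1 beside a floor of 56.9, only just entered it. It rests on 1 probe set. Among all probe sets of like brightness, the central 90% of log2 ratios without a floor ran between -0.90 and 0.61. CYP26A1 was chosen for this difference, so its rank and its place outside that range are descriptions. With the floor at the 75th percentile, a signal of 170.5, the ratio of CYP26A1 became a bound of -1.40, or at least 2.64-fold lower.

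The promoter sequences of CYP26A1 and RARB are shown because both hold the element through which retinoic acid receptors act on these genes in textbook accounts, a direct repeat of a hexamer with 5 bases between its copies, called DR5. RefSeq promoter windows of assembly GRCh38.p14, which run 250 bases before to 50 after each start site, were searched on both strands for any pair, in the same orientation and 5 bases apart, of the hexamer AGGTCA, of its close relatives AGTTCA and also GGGTCA, or finally of GGTTCA. All 10 genes had a window, 21 windows in all, and the repeat was found in 1 of 2 windows of CYP26A1 and 1 of 4 windows of RARB. It was in 31 of 35116 windows of all genes, or 0.0883%. Spacings of 2 bases and of 1 base, which the same receptors or other RXR pairs can bind, were in 0.0399% and 0.131% of all windows and in 0 of the 21, and no match says only that these letters are not in these windows. The bases before the start site are printed along the gene's strand, with the hexamers in capitals. The CYP26A1 stretch is chr10:93073743-93073892, plus strand, and its repeat, which lies on the opposite strand and so reads here as TGAACT, covers positions -90 to -74 from the start site. The RARB stretch is chr3:25428150-25428262, plus strand, with the repeat at -53 to -37.
CYP26A1: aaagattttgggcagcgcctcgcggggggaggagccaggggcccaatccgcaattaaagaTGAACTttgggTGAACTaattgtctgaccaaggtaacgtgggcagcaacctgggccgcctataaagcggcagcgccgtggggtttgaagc
RARB: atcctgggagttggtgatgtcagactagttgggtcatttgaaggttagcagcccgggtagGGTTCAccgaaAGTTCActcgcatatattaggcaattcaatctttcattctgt

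The second degrading enzyme, CYP26B1, gave no level above the floor. One probe set read 4.78 in the eltrombopag and 15.8 in the untreated sample, and the other 12.9 with eltrombopag and 4.53 untreated, so they ran in opposite directions. Unfloored log2 ratios were -1.72 and 1.51, at a brightness where the central 90% of probe sets spread over -1.57 to 1.59 and over -1.81 to 1.87. No direction can be given for CYP26B1.

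The enzymes on the other side of the pathway, and the carrier, were below the floor too. ALDH1A2, which makes retinoic acid, had signals of 39.7 with eltrombopag and 23.7 untreated in its brighter probe set and of 17.3 with eltrombopag and 16.7 untreated in the other. DHRS3, which returns retinal to retinol, read 16.7 in the eltrombopag and 14.8 in the untreated sample in its only probe set. CRABP2, the carrier, came closest to the floor, with 52.5 in the eltrombopag and 44.4 in the untreated sample. All 4 probe sets of these 3 genes lay within the central 90% of ratios of like brightness, with unfloored log2 ratios of 0.05 to 0.74, and below the floor no direction is given for them. DHRS3 and CRABP2, textbook targets as CYP26A1 is, thus had no measured level that could be set beside it.

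Of the receptors, RARA, the one fused to PML in acute promyelocytic leukaemia, was measured in 2 of 5 probe sets. Its brightest probe set had a signal of 307.8 in the eltrombopag and 286.9 in the untreated sample. The next had 249.7 with eltrombopag and 210.8 untreated. Both were slightly higher with eltrombopag, with log2 ratios of 0.10 and 0.24, which set against 0 is less than the SD between probe sets of a gene. Relative to the median of all measured genes, -0.12, the brightest lay away by less than that SD and the next by more. Both carry the suffixes _x_at or _s_at, which mark probes that can match more than 1 transcript. The ratio kept its sign under the 7 alternatives that gave RARA a value, between 0.10 and 0.24.

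RARB, a receptor that is itself switched on by retinoic acid, was above the floor in the untreated sample alone. Its brightest probe set read 42.5 in the eltrombopag and 77.8 in the untreated sample, at least 1.37-fold lower on the floored scale and 1.83-fold lower without a floor. The other 4 probe sets were below the floor in both samples, with unfloored log2 ratios between -1.66 and 1.16, so they did not share a direction. The unfloored ratio of the brightest, -0.87, was inside the central 90% for its brightness, which ran between -1.0 and 0.62. RARG, the third receptor, was below the floor in 3 of 3 probe sets, the brightest reading 35.3 with eltrombopag and 32.9 untreated.

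RXRB, a partner receptor, was higher in the eltrombopag sample in both probe sets above the floor. The brightest read 704.6 in the eltrombopag and 376.4 in the untreated sample, 1.87-fold higher. The next read 90.7 with eltrombopag and 70.0 untreated, a 1.29-fold difference, and the dimmest, below the floor, 55.1 with eltrombopag and 44.4 untreated. The size therefore differed between probe sets, with log2 ratios of 0.90, 0.37 and, unfloored, 0.31. Of the 9597 genes with both arrays at or above the floor, 0.917% had a ratio at least as high as that of the brightest probe set. It passed 2-fold after quantile normalization and after lowess, at 2.01-fold each, and had a mean of 0.64 over its measured probe sets. RXRA, the related receptor, ran the other way by little, with 559.8 in the eltrombopag and 665.7 in the untreated sample and a log2 ratio of -0.25. Its second probe set read 52.7 with eltrombopag and 64.3 untreated. Relative to the median of all measured genes, -0.12, RXRA lay away by less than the SD between probe sets of a gene.

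**Figure D2:**
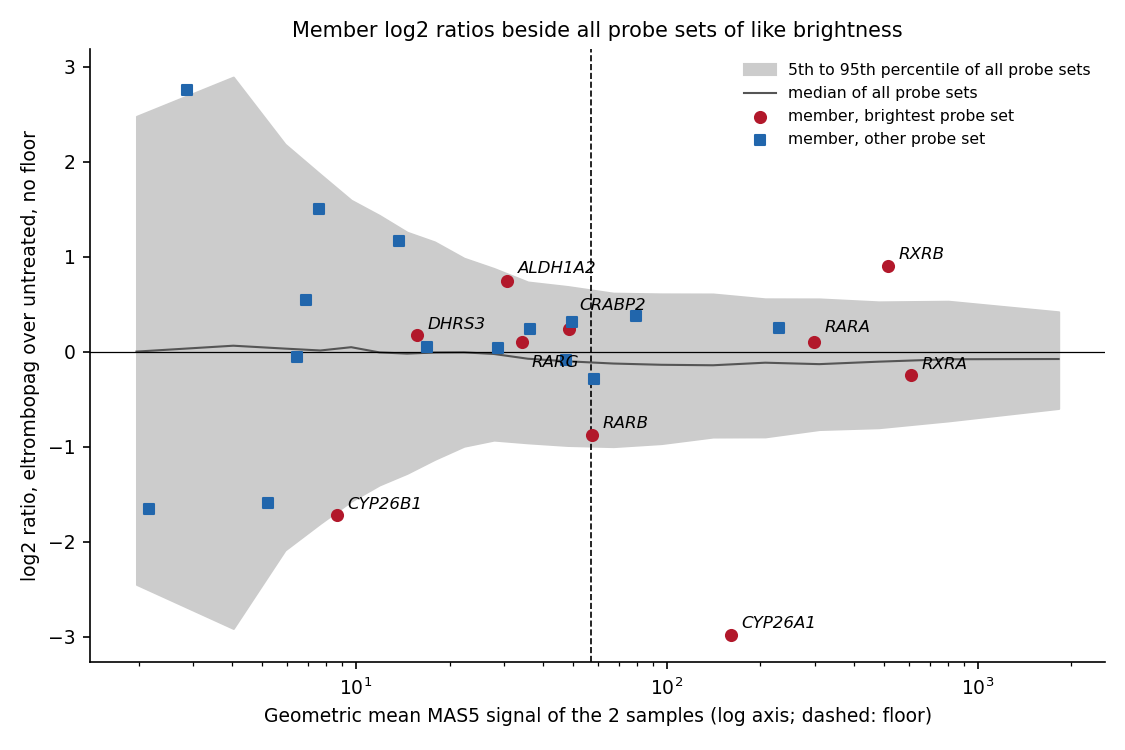
Log2 ratio of eltrombopag over untreated without a floor against the geometric mean signal of both samples (log axis) for the 25 probe sets, with the 5th to 95th percentile of all probe sets in 20 brightness bins in grey. CYP26A1 lies below the band, the brightest RXRB probe set above it, and of 17 probe sets below the floor in both samples 15 lie inside it.

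Over all 25 probe sets, 21 lay within the central 90% of ratios of like brightness. The 4 outside it were those of CYP26A1, the brightest of RXRB, the brighter of CYP26B1 and the dimmest of RARA, which read 7.40 with eltrombopag and 1.10 untreated. The last pair lay far below the floor, where a ratio carries little information.

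Genes with a DR5 repeat in their promoter window were followed because CYP26A1 and RARB share it. Of 29 such genes in RefSeq, 15 had a probe set of their own and 6 were measured. Beside CYP26A1 and RARB these were ATXN1L, CFLAR, PANK2 and PHF8, of which 0 differed by 2-fold, beside 2.27% lower and 0.65% higher among all measured genes, and 3 of 4 had a ratio below 0, beside 63.4%. ATXN1L, a relative of the ataxin-1 corepressor, read 359.1 with eltrombopag and 513.0 untreated, with log2 ratios of -0.51 and -0.35 in its measured probe sets. PANK2, an enzyme of coenzyme A synthesis, had 948.5 in the eltrombopag and 1167 in the untreated sample, and 3 of 3 measured probe sets were below 0. CFLAR, an inhibitor of caspase-8, had 790.4 with eltrombopag and 856.7 untreated, with ratios of -0.99 to 0.12 over 12 measured probe sets, 11 of them below 0. PHF8, a histone demethylase, had 486.4 with eltrombopag and 390.2 untreated, a log2 ratio of 0.32. With 4 genes, nothing is read from this about genes that hold the repeat.

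Genes that retinoic acid is known to induce in leukaemic or other cells gave the widest view of the pathway's output. Of 40 on the list, 33 were analysed and 16 were measured; 0 passed 2-fold in the lower and 0 in the higher direction, beside 2.27% and 0.65% of all measured genes. Their median log2 ratio was -0.19, against -0.12 for all measured genes, with 14 of 16 below 0, beside 63.4% of all measured genes, and 2 above. PRAM1, an adaptor of myeloid cells, read 381.3 with eltrombopag and 703.7 untreated, the lowest ratio on the list at -0.88. ID2, an inhibitor of helix-loop-helix factors, had 1327 in the eltrombopag and 2376 in the untreated sample, with ratios of -0.84 and -0.99 in its probe sets. TNFAIP2 and LYN, a SRC family kinase, had ratios of -0.72 and -0.42 in their brightest probe sets, and another LYN probe set gave 0.13. CEBPB, a myeloid transcription factor, had the highest ratio, 0.22. RIGI, an RNA sensor, gave -0.13 in the brightest and 1.09 in another of its probe sets, so it has no settled direction. CEBPE, the granulocyte factor whose gene the receptors induce directly, read 558.2 with eltrombopag and 646.5 untreated, a ratio of -0.21. ITGAM and CD38, surface markers that come up when HL60 cells respond to retinoic acid, had floored ratios of -0.12 and -0.34. CD38 is also one of the plasma cell markers. TGM2, ASB2, CYBB and PLAAT4, other known targets, lay below the floor in both samples.

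Genes that decline as retinoic acid matures promyelocytes were mixed. Of 9 such genes, 8 were measured and 0 differed by 2-fold in either direction, which for so few genes is near the background of 2.27% lower and 0.65% higher. Ratios were below 0 in 5 and above 0 in 3, near the 63.4% below 0 among all measured genes. The median log2 ratio was -0.10, against -0.12 for all measured genes. CTSG, a granule protease, had 279.6 in the eltrombopag and 500.5 in the untreated sample, a ratio of -0.84. WT1 gave -0.54, MYB, a progenitor transcription factor, 0.43, and TERT, the telomerase catalytic subunit, 0.27. MYC had a ratio of -0.12, and MPO gave -0.08 and 0.26 in its 2 probe sets.

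**Figure D3:**
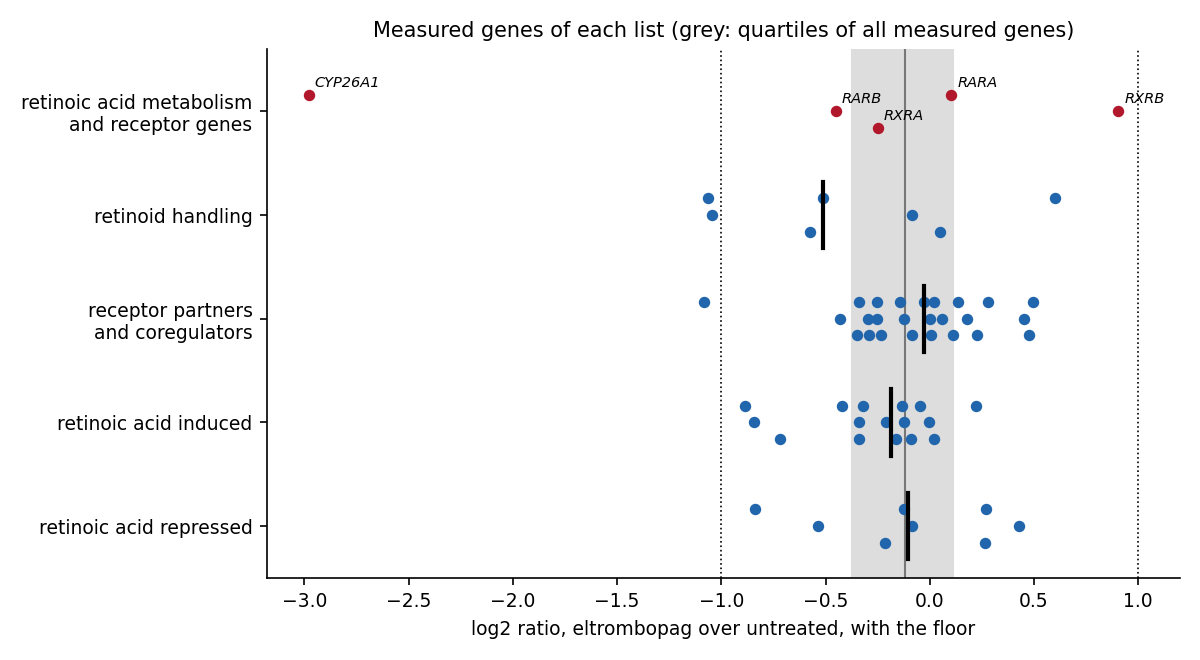
Log2 ratio of eltrombopag over untreated, with the floor, for each measured gene of the retinoid genes (red) and of 4 pathway lists (blue), with each pathway list's median as a black bar, the quartiles of all measured genes in grey and 2-fold dotted. CYP26A1 stands at -2.98, while the genes induced or repressed by retinoic acid all lie inside the 2-fold lines.

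Other genes of retinoid handling were lower in part. Of 30 listed, 25 were analysed and 7 measured, with 2 past 2-fold on the lower side and 0 on the higher side, beside 2.27% and 0.65% of all measured genes. The median log2 ratio was -0.51, against -0.12 for all measured genes. CYP1B1, a cytochrome P450 that can oxidise retinol, was 2.09-fold lower, with 553.4 in the eltrombopag and 1157 in the untreated sample. Its 3 measured probe sets had ratios of -1.06, -1.28 and -1.04. FABP5, which carries retinoic acid to PPARD, had 617.2 with eltrombopag and 1275 untreated, 2.07-fold lower in its only probe set. Every probe set of CYP1B1 and FABP5 carries the suffix _s_at, so neither had a value when suffixed probe sets were left out. Both genes were at the edge of the threshold, and after quantile normalization and lowess they were less than 2-fold lower, at 1.97-fold and 1.96-fold for CYP1B1 and 1.95-fold and 1.94-fold for FABP5. RDH10, which makes retinal from retinol, and RETSAT, a retinol saturase, had ratios of -0.57 and -0.51. RDH11, a retinal reductase, had 0.60 in its brightest probe set but 0.05 in the next. When the floor was lowered to the 50th percentile, the list's median was -0.13, against -0.11 for all measured genes. Without a floor it was -0.12, against -0.08. More genes counted as measured under both settings, and the list then lay close to all genes.

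Receptor partners and coregulators lay close to 0. Of 34 listed, 29 were analysed and 25 measured, with 1 past 2-fold on the lower side and 0 on the higher side, near the 2.27% and 0.65% of all measured genes. Ratios were below 0 in 13 and above 0 in 12, beside 63.4% below 0 among all measured genes. The median log2 ratio was -0.03, against -0.12 for all measured genes. The list's median was above 0 after median centring, quantile normalization and lowess, at 0.03, 0.06 and 0.06. The median of all measured genes rose too, to -0.06, -0.01 and -0.01. The list's median was also above 0, by less, when probe sets were averaged, at 0.012, without suffixed probe sets, at 0.014, and without a floor, at 0.0001. All measured genes there had -0.13, -0.13 and -0.08. With the floor at the 50th and 75th percentile the list had -0.01 and -0.06, against -0.11 for all measured genes under either. NR2F1, an orphan receptor that can occupy the same repeats, had 148.2 in the eltrombopag and 313.9 in the untreated sample, 2.12-fold lower in its only probe set, and was below 2-fold after quantile normalization and lowess, at 1.91-fold and 1.92-fold. MNAT1 and CCNH, which with CDK7 form the kinase that phosphorylates RARA, had ratios of 0.49 and 0.48, while CDK7 itself read 261.4 with eltrombopag and 261.4 untreated. NR4A2, an orphan receptor that pairs with RXR, was above the floor with eltrombopag alone, at 77.9 against 34.2 untreated, at least 1.37-fold higher. EP300, a coactivator, had -0.43 and -0.21 in its probe sets. PRAME, which can repress RAR signalling, had 432.1 with eltrombopag and 415.2 untreated.

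The genes nearest to CYP26A1 in pattern were sought by the distance between log2 signals over the 2 samples, among genes that reached the floor in both. The 5 nearest were PAQR4, SYCP3, C12orf75, E2F7 and CKAP4, at distances of 0.76, 0.91, 0.99, 1.01 and 1.03 log2 units. PAQR4, a membrane protein of the progestin and adipoQ receptor family, had 72.8 in the eltrombopag and 282.2 in the untreated sample, 3.88-fold lower. SYCP3, of the meiotic chromosome axis, was 3.55-fold lower, C12orf75 3.34-fold, E2F7, a repressor of the E2F family, 3.07-fold, and CKAP4, a membrane protein of the endoplasmic reticulum, 2.93-fold. A second CKAP4 probe set, above the floor in the untreated sample alone, gave a floored ratio of -0.32. With 2 samples, likeness of this kind says only that the levels were similar on both arrays.

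**Figure D4:**
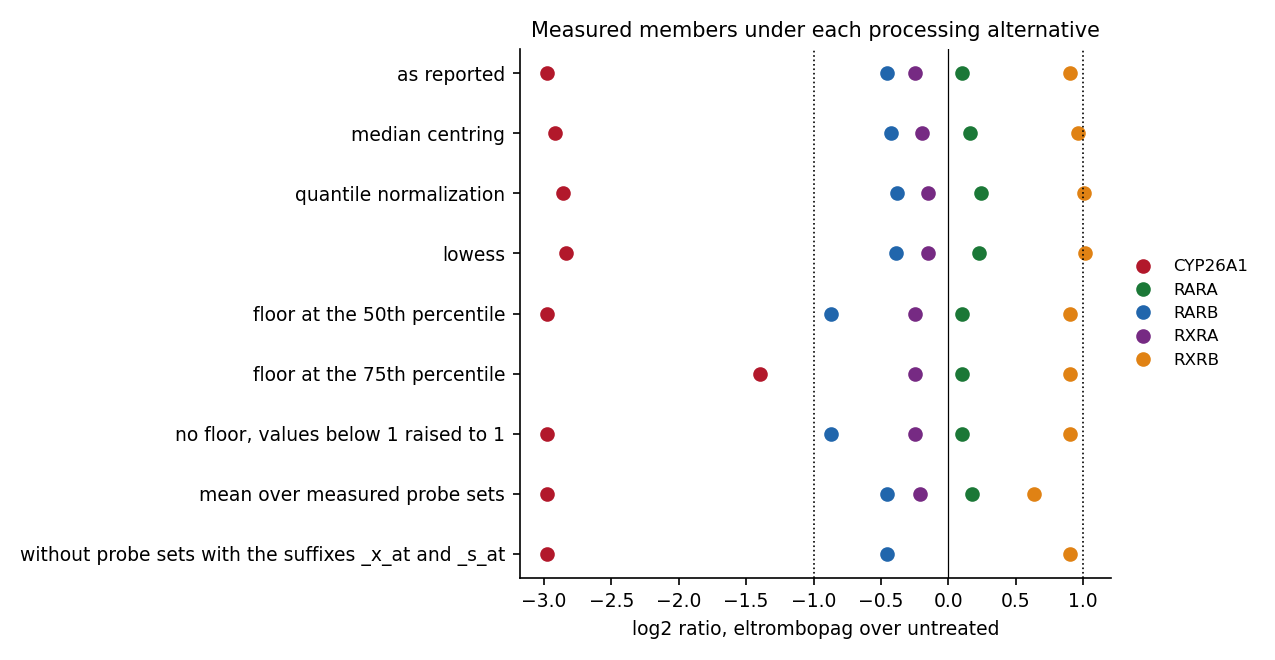
Log2 ratio of eltrombopag over untreated for the 5 measured retinoid genes as reported and under each of 8 processing alternatives, 1 row each, with 2-fold dotted. CYP26A1 ranges from -2.98 to -1.40 and RXRB from 0.64 to 1.01, and each gene keeps its sign wherever it has a value.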

How the data were processed

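The authors deposited a signal intensity, on a linear scale, for each probe set of each array. Per the submitters' processing notes the tool was MAS5, whose version and scaling target are not given in the sources, and no detection calls were used. MAS5 sets perfect-match against mismatch probes within an array, so dim signals carry large relative error. Per the labels' protocols, biotinylated cRNA came from about 5 µg of Trizol-extracted total RNA. Precision is limited by there being 1 array per group.

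Values were used as deposited. Of 54613 probe sets, the platform annotation gives 1 gene for 41091, more than 1 gene for 1801, which were not used by name, and none for 11721. The gene identifier of 41037 was found among the RefSeq genes. Exactly 1 was recorded for 901 probe sets with eltrombopag and 935 untreated, and for 0 of the retinoid probe sets. The floor was the 60th percentile of both arrays, a gene was represented by its probe set of highest mean log2 signal, and a change was counted from 2-fold. The array has no build here, so coordinates belong to the RefSeq promoters alone. The genes and lists were chosen with earlier results of these data known. Named genes were the members with every probe set, up to 4 per list by size of ratio, any past 2-fold, the 5 nearest to CYP26A1, and the markers; other list genes were named after their values were seen. The alternatives were median centring, quantile normalization, lowess (span 0.3), a floor at the 50th percentile, at the 75th or absent (with 1 as the lowest value), averaging over measured probe sets, the omission of suffixes _x_at and _s_at, and thresholds of 1.5-fold and 3-fold. Python 3.11.15, pandas 2.3.3 and statsmodels 0.14.6 were used.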

Additional observations from a re-analysis of the deposited data

How the results depend on the processing

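No paired analysis was possible because each group holds 1 sample, and no sample could be left out. CYP26A1 was at least 2-fold lower under every alternative run, with a log2 ratio of -1.40 with the floor at the 75th percentile, where it is a bound, and of -2.98 to -2.84 under the others. Retinoid genes at least 2-fold higher numbered 1, RXRB, after quantile normalization and after lowess. With the threshold at 1.5-fold instead, RXRB was also the 1 gene counted higher. Retinoid genes at least 2-fold lower numbered 2 without a floor, where CYP26B1, at the lowest signals, was added. Over all genes, 234 were lower and 67 higher as reported, so that higher genes made up 22.3% of the calls. The counts were 133 lower and 108 higher after quantile normalization (44.8% higher) and 135 and 106 after lowess (44.0%). They were 186 and 82 of 10311 measured genes after median centring, and 320 and 91 of 12379 under a floor at the 50th percentile. Under a floor at the 75th percentile they were 98 and 37 of 7656, and without a floor 1324 and 1194 of 19775. Of 10314 measured genes as reported, 1215 and 360 passed 1.5-fold (11.8% and 3.49%), and 19 and 18 passed 3-fold. The retinoid handling median was -0.13 when the floor was lowered to the 50th percentile and -0.12 without one. All measured genes had medians of -0.11 and -0.08 under these settings. Counts per list under the alternatives were added after the data had been seen. Retinoid handling genes at least 2-fold lower numbered 2 of 7 measured as reported, 1 after median centring, and 0 after quantile normalization and after lowess. Without a floor, where all 25 counted as measured, the number was 3. At a threshold of 3-fold it was 0. Without suffixed probe sets the count lower was also 0, where CYP1B1 and FABP5 had no probe set left. Retinoid handling genes at least 2-fold higher numbered 1 of 25 without a floor. At a threshold of 1.5-fold, 1 of 7 was higher, beside 3.49% of all measured genes. Receptor partners and coregulators at least 2-fold lower numbered 1 of 25 measured as reported. They numbered 0 after quantile normalization, after lowess and under a floor at the 75th percentile. At a threshold of 3-fold the count was also 0. Those at least 2-fold higher numbered 1 under a floor at the 50th percentile and 1 of 29 without one. Genes induced by retinoic acid at least 2-fold higher numbered 3 of 33 without a floor. At a threshold of 1.5-fold, 3 of 16 induced and 1 of 8 repressed genes were lower, beside 11.8% of all measured genes. Where these counts changed, the cause was not tested beyond the alternative's own construction. Below the floor, where 17 of the 25 retinoid probe sets lie, the signal does not allow a direction.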
